A study of Mus musculus with 6 samples.

Results

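The genes described here are those that encode the subunits of the proteasome and the proteins that cap it: the protein-coding genes of the mouse count table whose symbol starts with Psma, Psmb, Psmc, Psmd or Psme. The table held 49 rows with such a symbol, of which 45 were protein coding, among 55414 genes in all. By role, 7 were alpha ring genes, 7 constitutive beta ring genes, 5 immunoproteasome genes (Psmb8, Psmb9, Psmb10, Psme1 and Psme2), 6 ATPase genes and 11 non-ATPase genes of the regulatory particle. The other 9 were 3 chaperones of regulatory particle assembly (Psmd5, Psmd9 and Psmd10), 2 further activators (Psme3 and Psme4), the germ cell alpha subunit Psma8, the thymic beta subunit Psmb11, Psme2b, a near copy of Psme2, and Psmc3ip, which shares the prefix but encodes a protein of meiotic recombination. All 45 passed the filter on low counts.

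Polyadenylated RNA was measured in CD8+ T cells from spleen and lymph nodes of mice with the OT-I receptor, a transgenic T cell receptor that recognises a fragment of ovalbumin. The N4 group was taken 4 days after the ovalbumin peptide itself, the T4 group 4 days after a variant peptide of lower potency for this receptor, each given with anti-OX40 and anti-41BB antibodies that engage costimulatory receptors. The naive group was not stimulated. Each group held a pair of libraries, replicates 1 and 2, whose values are given in that order. All groups carry the same label for genotype, OT-I. Nothing in the labels says that both libraries of a pair came from separate mice, so a p-value speaks of the spread within pairs only, and this spread may be technical.

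The proteasome degrades proteins that carry a ubiquitin chain. Its 20S core is a stack of alpha and beta rings, in which 3 beta subunits cut peptide bonds: PSMB5, PSMB6 and PSMB7. The 19S regulatory particle, with its ring of ATPases and its non-ATPase subunits, binds, deubiquitinates and unfolds the substrate. Under interferon-gamma, and constitutively in many cells of the immune system, PSMB8, PSMB9 and PSMB10 are built in instead of PSMB5, PSMB6 and PSMB7 to give the immunoproteasome, and PSME1 and PSME2 form an alternative cap. Immunoproteasomes are known for cutting peptides that fit MHC class I molecules, and dividing T cells carry a high load of protein synthesis and turnover.

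The libraries held between 269033066 and 335968843 estimated counts, of which the 45 genes took 1.751% and 1.67% in the N4 pair, 1.715% and 1.705% in the T4 pair and 1.398% and 1.355% in the naive pair. All 8 CD8 T cell markers were detected in every group, with a summed level of 4907 and 6312 CPM (counts relative to the library total, scaled with TMM factors) in the N4 pair, 4047 and 4331 in the T4 pair and 5890 and 7530 in the naive pair. The summed markers of other cells also differed between the groups. The 10 macrophage markers summed to 21.8 and 19.1 CPM in the N4 pair, 270 and 258 CPM in the T4 pair and 2258 and 2668 CPM in the naive pair, and the 8 neutrophil markers to 47.6 and 39.2, 12.9 and 5.38, and 2444 and 25335 CPM in the same order. The 8 dendritic cell markers summed to 83.7 and 61.6 CPM in the N4 pair, 567 and 551 CPM in the T4 pair and 2100 and 1331 CPM in the naive pair. In N4, Adgre1 of the macrophage list, Cxcr2 of the neutrophil list and Siglech of the dendritic list were at 0, and in T4 Mmp8 of the neutrophil list was. The 7 red cell markers summed to 423 and 360 CPM in the N4 pair, 6511 and 8124 CPM in the T4 pair and 3447 and 9232 CPM in the naive pair, with Alas2 at 0 in N4. The part of these cells in the levels below was not tested. In bulk RNA, fewer cells of a type and less RNA per cell cannot be told apart.

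The bases upstream of the transcription start are shown for Psmb5, Psmb6, Psma1, Psma3 and Psmd14 and, as a short stretch, for Psmb8. Psmb10, Psma4 and Psmc6 were left out because their windows lie in an annotated exon. Psmb7, Psmb9, Psma6 and Psme4 are not shown either, so the set does not cover all genes called below. Each window runs from 170 bases before the transcription start to the last base before it, from RefSeq on GRCm38, and capitals mark letters that match 1 of the 4 motifs searched. The constitutive catalytic pair Psmb5 and Psmb6 comes with matches to the antioxidant response element, and Psma1, Psma3 and Psmd14 with matches to the CCAAT box, which was also found upstream of Psma2, Psma6 and Psma7, the last of opposite sign in its fold change.
Psmb5, GRCm38, chr14:54617996-54618165, reverse strand: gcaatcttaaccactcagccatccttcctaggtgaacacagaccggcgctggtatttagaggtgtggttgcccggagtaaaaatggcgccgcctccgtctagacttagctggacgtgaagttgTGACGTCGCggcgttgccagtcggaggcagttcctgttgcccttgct
Psmb6, GRCm38, chr11:70525187-70525356, forward strand: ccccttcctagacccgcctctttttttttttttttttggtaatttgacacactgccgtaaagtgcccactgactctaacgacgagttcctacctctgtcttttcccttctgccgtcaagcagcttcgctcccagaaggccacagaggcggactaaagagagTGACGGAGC
Psma1, GRCm38, chr7:114276117-114276286, reverse strand: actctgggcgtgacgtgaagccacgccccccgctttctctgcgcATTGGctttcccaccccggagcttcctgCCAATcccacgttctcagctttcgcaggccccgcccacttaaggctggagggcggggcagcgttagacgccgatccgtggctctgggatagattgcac
Psma3, GRCm38, chr12:70974453-70974622, forward strand: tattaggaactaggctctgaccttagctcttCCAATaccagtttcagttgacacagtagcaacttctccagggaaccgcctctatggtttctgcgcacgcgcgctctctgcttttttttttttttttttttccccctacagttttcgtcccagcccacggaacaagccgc
Psmd14, GRCm38, chr2:61711524-61711693, forward strand: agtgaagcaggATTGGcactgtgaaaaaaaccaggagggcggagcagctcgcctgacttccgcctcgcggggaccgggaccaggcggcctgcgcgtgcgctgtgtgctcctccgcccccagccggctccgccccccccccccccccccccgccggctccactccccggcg
For the inducible gene Psmb8, 29 bases around its single match are shown, from 107 to 79 bases before the RefSeq start. All 29 bases lie in an annotated exon, and within the span given for Psmb8 below.
Psmb8, GRCm38, chr17:34198088-34198116, forward strand: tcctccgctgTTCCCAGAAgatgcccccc

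All 4 motifs were searched on both strands of the 250 bases before each start, in the 38 members with a RefSeq promoter and in 32851 promoters in all. The interferon-stimulated response element, written as GAAA, 2 bases of any kind and GAAA, was found in 3 of the 38 members (Psmb3, Psmd4 and Psmd9), or 7.89%, against 2.98% of all promoters, and in 0 of the 5 immunoproteasome genes. The gamma-activated site, TTCNNNGAA, was found in 1 member, Psmb8, 97 to 89 bases before the start, against 7.02% of all promoters. These letters of Psmb8 lie in an annotated exon. The antioxidant response element, TGACNNNGC, the letters read by the factors NFE2L1 and NFE2L2, was found in 5 members, or 13.2%, against 10.2% of all promoters: Psmb5 (47 to 39 bases before the start), Psmb6 (9 to 1), Psmc6, Psmd9 and Psmd12. The CCAAT box was found in 15 members, or 39.5%, against 33.8%, and in 6 of the 11 constitutive core genes with a promoter. A match is a description of letters, not a site, and these shares rest on few promoters. Psmb9 lies head to head with Tap1, which encodes a subunit of the peptide transporter of the class I pathway: their starts are 226 bases apart on opposite strands. Annotated exons of Psmb9 and Tap1 also overlap, so some reads of either are uncertain.

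N4 and naive cells were compared to see how these genes stood 4 days after the strong peptide. Of the 45 members, 7 rose and 1 fell by edgeR's quasi-likelihood test with Benjamini-Hochberg adjustment over 23003 genes at a threshold of 0.05. That was 17.8% of the members, against 12.1% of all genes tested that were called, and 15.6% against 4.87% among the higher calls and 2.22% against 7.18% among the lower calls. The genes that rose were 3 of the 7 alpha ring genes (Psma1, Psma3 and Psma4), Psmb7 of the constitutive beta ring, the ATPase gene Psmc6, the non-ATPase gene Psmd14 and the activator gene Psme4. The gene that fell was Psmb10, the inducible partner of Psmb7. A further 11 members had an unadjusted p under the threshold, 19 in all. The count rests on the libraries, though a fit without 1 library leaves a group of 1. Without either N4 library, either T4 library or naive replicate 1, fewer members and fewer of all genes were called. Without naive replicate 2, more of both were called.

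N4 and T4 cells were compared to set the stronger peptide against the weaker one. In this comparison 5 members rose and 1 fell, 13.3% of the members against a background of 7.96%, with 11.1% against 3.48% among the higher and 2.22% against 4.47% among the lower calls. The genes that rose were Psma1, Psma3 and Psma6 of the alpha ring, Psmc6 and Psmd14, and the gene that fell was again Psmb10. Both comparisons share the N4 libraries. Here the calls fell without any 1 of the N4 or T4 libraries, among the members and over all genes alike. They rose in both without either naive library. With scaling by library totals in place of TMM, 8 members were called higher and 3 lower (Psmb8, Psmb10 and Psme2) in N4 against naive, against 3.02% higher and 7.73% lower over all genes. In N4 against T4, 4 were then called higher and 5 lower (Psma7, Psmb8, Psmb9, Psmb10 and Psme2), against 1.39% and 7.55%. Of all genes called, 28.1% and 15.6% were higher in N4 against naive and against T4 under that scaling, and 40.4% and 43.8% with TMM. In T4 against naive cells 0 members passed the threshold with edgeR, against a background of 0.117% (0.0826% higher and 0.0348% lower). There, 4 members had an unadjusted p under 0.05, and DESeq2 called 2, Psmd7 and Psmc3ip, against 8.68% of all genes called by it. DESeq2 called 15 members in N4 against naive and 19 in N4 against T4, where it called 27.2% and 25.1% of all genes.

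**Figure D1:**
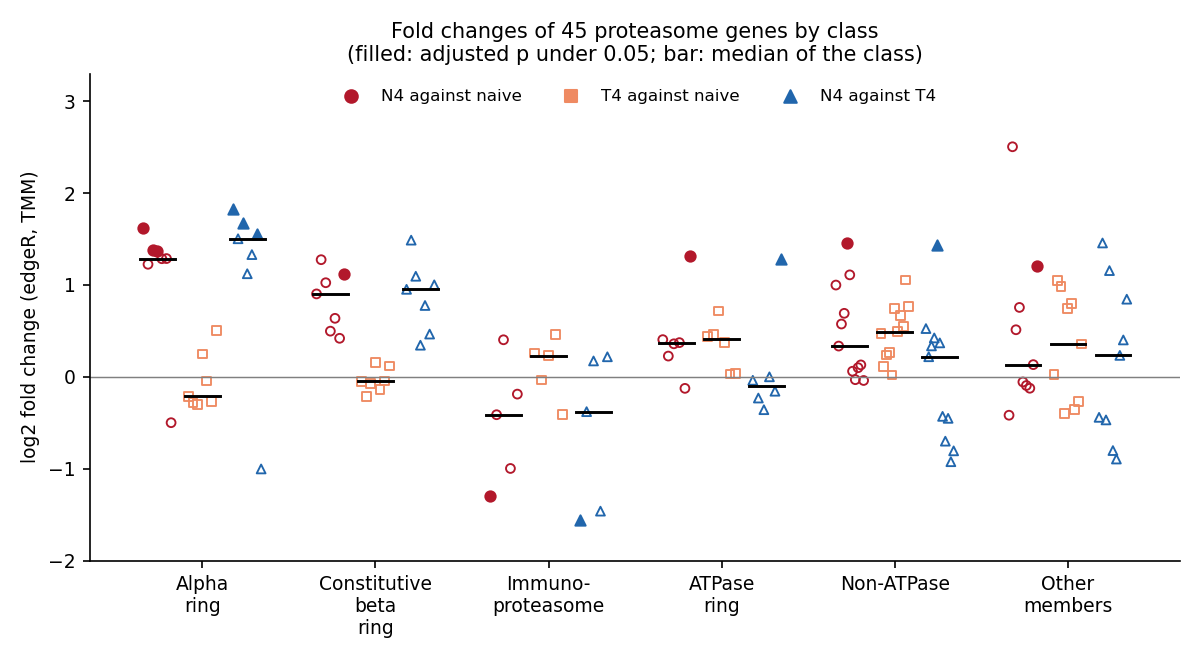
Log2 fold change of each of the 45 genes (vertical axis) by class (horizontal axis) in 3 comparisons, from edgeR with TMM scaling; filled symbols passed an adjusted p of 0.05 and bars are class medians. In N4, 6 of the 7 alpha ring genes lie above 1 against either other group, the immunoproteasome medians lie below 0 (0.00 and 0.32 with a correction for GC content), and no gene passed the threshold in T4 against naive.

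In the alpha ring, which gates the entry to the core, 6 of the 7 genes had a positive log2 fold change in both N4 comparisons. Psma1 was at 1189 and 1551 CPM in the N4 pair, 387 and 384 CPM in the T4 pair and 344 and 550 CPM in the naive pair. The groups did not overlap between N4 and the others, while the naive libraries lay on both sides of T4. By edgeR, Psma1 had a log2 fold change of 1.62 against naive (SE 0.33, adjusted p 0.032) and of 1.83 against T4 (SE 0.33, adjusted p 0.034). Psma3 was at 1564 and 2094 CPM in the N4 pair, 552 and 591 CPM in the T4 pair and 548 and 858 CPM in the naive pair, again with both N4 libraries above all others. Its log2 fold changes were 1.38 (SE 0.33, edgeR adjusted p 0.047) against naive and 1.68 (SE 0.33, adjusted p 0.039) against T4. Psma4 was at 412 and 503 CPM in the N4 pair, 208 and 213 CPM in the T4 pair and 153 and 201 CPM in the naive pair. It passed the threshold against naive (log2 fold change 1.37, SE 0.26, edgeR adjusted p 0.028) and missed it narrowly against T4 (1.12, SE 0.26, adjusted p 0.054). The exons of Psma4 overlap those of a predicted coding gene, so some of its reads are uncertain.

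Psma6 showed the opposite pattern of calls with like values: 1116 and 1523 CPM in the N4 pair, 428 and 468 CPM in the T4 pair and 435 and 646 CPM in the naive pair. By edgeR, its log2 fold change was 1.56 against T4 (SE 0.32, adjusted p 0.042) and 1.29 (SE 0.31, adjusted p 0.051) against naive. Psma2 and Psma5 stayed just outside the threshold in both comparisons (edgeR adjusted p 0.051 to 0.070), with log2 fold changes of 1.22 and 1.29 against naive and 1.5 and 1.33 against T4. The 1 alpha ring gene with the other sign was Psma7, singled out after its values were seen. It was at 246 and 176 CPM in the N4 pair, 428 and 416 CPM in the T4 pair and 296 and 299 CPM in the naive pair, so that N4 lay below both other groups. Its log2 fold change of -1.0 against T4 (SE 0.26, edgeR adjusted p 0.066) and -0.50 against naive (SE 0.26, adjusted p 0.247) did not pass. Within a library, the per-length level of Psma7 was 0.287 and 0.156 times the median of the other alpha genes in the N4 pair, 1.29 and 1.22 times in the T4 pair and 1.09 and 0.656 times in the naive pair. Per-length levels divide the count of each transcript by its length and are scaled to the same total in every library, so that genes of 1 library can be compared, and a ratio within a library does not depend on the scaling between libraries. One copy of each alpha subunit is built into every alpha ring.

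All 7 constitutive beta ring genes had a positive log2 fold change in N4, from 0.42 to 1.27 against naive and from 0.34 to 1.49 against T4, with Psmb7 against naive as the only call. With scaling by library totals, 6 of the 7 stayed positive against naive and 4 of the 7 against T4. Psmb7 encodes the subunit that cuts after basic residues. It was at 402 and 424 CPM in the N4 pair, 204 and 208 CPM in the T4 pair and 155 and 225 CPM in the naive pair, with N4 above all others, and its log2 fold changes were 1.12 (SE 0.27, edgeR adjusted p 0.049) against naive and 1.00 (SE 0.27, adjusted p 0.070) against T4. The exons of Psmb7 overlap those of Nek6. Psmb2, next by p in this class, was at 2500 and 3438 CPM in the N4 pair, 999.95 and 1118 CPM in the T4 pair and 827 and 1628 CPM in the naive pair, with a log2 fold change of 1.27 against naive (SE 0.40, edgeR adjusted p 0.091).

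The other 2 constitutive catalytic genes differed less. Psmb5, for the chymotrypsin-like subunit, was at 1017 and 1097 CPM in the N4 pair, 587 and 647 CPM in the T4 pair and 479 and 881 CPM in the naive pair. N4 again lay above all others, but the naive libraries were far apart, and neither 0.64 against naive (SE 0.34, edgeR adjusted p 0.262) nor 0.78 against T4 (SE 0.34, adjusted p 0.197) passed. Psmb6, for the caspase-like subunit, was at 1115 and 1195 CPM in the N4 pair, 800 and 874 CPM in the T4 pair and 631 and 1097 CPM in the naive pair. With log2 fold changes of 0.42 against naive (SE 0.33, edgeR adjusted p 0.424) and 0.47 against T4 (SE 0.33, adjusted p 0.393) it did not pass either. Psmb5 and Psmb6 are the 2 genes whose windows above hold an antioxidant response element match close to the start.

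With TMM scaling 1 of the 5 immunoproteasome genes had a positive log2 fold change in N4 against naive and 2 of 5 against T4, whereas with scaling by library totals 0 of 5 did in either, and the edgeR calls of that scaling are those named above. Psmb8 (chr17:34197721-34201454) and Psmb9 (chr17:34181987-34187764) lie in the major histocompatibility complex, Psme1 (chr14:55578123-55581529) and Psme2 (chr14:55587441-55591113) close to each other, and Psmb10 at chr8:105935735-105938444, all on GRCm38. Psmb10, the inducible partner of Psmb7, was at 99.1 and 71.9 CPM in the N4 pair, 248 and 254 CPM in the T4 pair and 206 and 214 CPM in the naive pair. Both N4 libraries lay below every other library, at less than 100 CPM, and the 2 values in T4 and in naive were close to each other. By edgeR, the log2 fold change of Psmb10 in N4 was -1.56 against T4 (SE 0.26, adjusted p 0.030) and -1.3 against naive (SE 0.25, adjusted p 0.030), or 2.94 and 2.46 times lower. Between T4 and naive it was 0.26 (SE 0.25, adjusted p 0.728). With a correction for GC content, given below, the fall kept its sign but no longer passed.

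Psmb8, the inducible partner of Psmb5, was at 794 and 810 CPM in the N4 pair, 1034 and 1052 CPM in the T4 pair and 930 and 1205 CPM in the naive pair. The N4 values were the lowest, but the log2 fold changes of -0.41 against naive (SE 0.25, edgeR adjusted p 0.317) and -0.38 against T4 (SE 0.25, adjusted p 0.371) did not pass. With scaling by library totals both passed, at -0.92 and -1.23 (edgeR adjusted p 0.0295 and 0.0228), and with the GC correction they were 0.00 and 0.32. Psmb9, the inducible partner of Psmb6, was at 669 and 830 CPM in the N4 pair, 625 and 705 CPM in the T4 pair and 388 and 745 CPM in the naive pair. All 3 groups overlapped, and its log2 fold changes were 0.40 against naive (SE 0.36, edgeR adjusted p 0.496) and 0.17 against T4 (SE 0.36, adjusted p 0.807).

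The cap genes also differed from each other. Psme1 was at 86.6 and 48.6 CPM in the N4 pair, 188 and 184 CPM in the T4 pair and 183 and 86.7 CPM in the naive pair, so that 1 naive library lay at the level of the higher N4 library. Its log2 fold change of -1.46 against T4 (SE 0.45) had an edgeR adjusted p of 0.095, and that of -1.0 against naive (SE 0.44) one of 0.192. The exons of Psme1 overlap those of the coding gene Emc9. Psme2 was at 872 and 986 CPM in the N4 pair, 769 and 828 CPM in the T4 pair and 821 and 1295 CPM in the naive pair, with log2 fold changes of -0.19 against naive (SE 0.30, edgeR adjusted p 0.722) and 0.22 against T4 (SE 0.30, adjusted p 0.688). Its copy Psme2b, whose reads may be shared with Psme2, was at 63.8 and 73.6, 54.9 and 62.0, and 56.9 and 92.8 CPM in the same order. PSME1 and PSME2 form a mixed ring, and the per-length level of Psme1 was 0.082 and 0.041 times that of Psme2 in the N4 pair, 0.205 and 0.188 times in the T4 pair and 0.202 and 0.054 times in the naive pair. The ratio was thus below both T4 libraries in N4, while 1 of the 2 naive libraries was among the low ones.

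**Figure D2:**
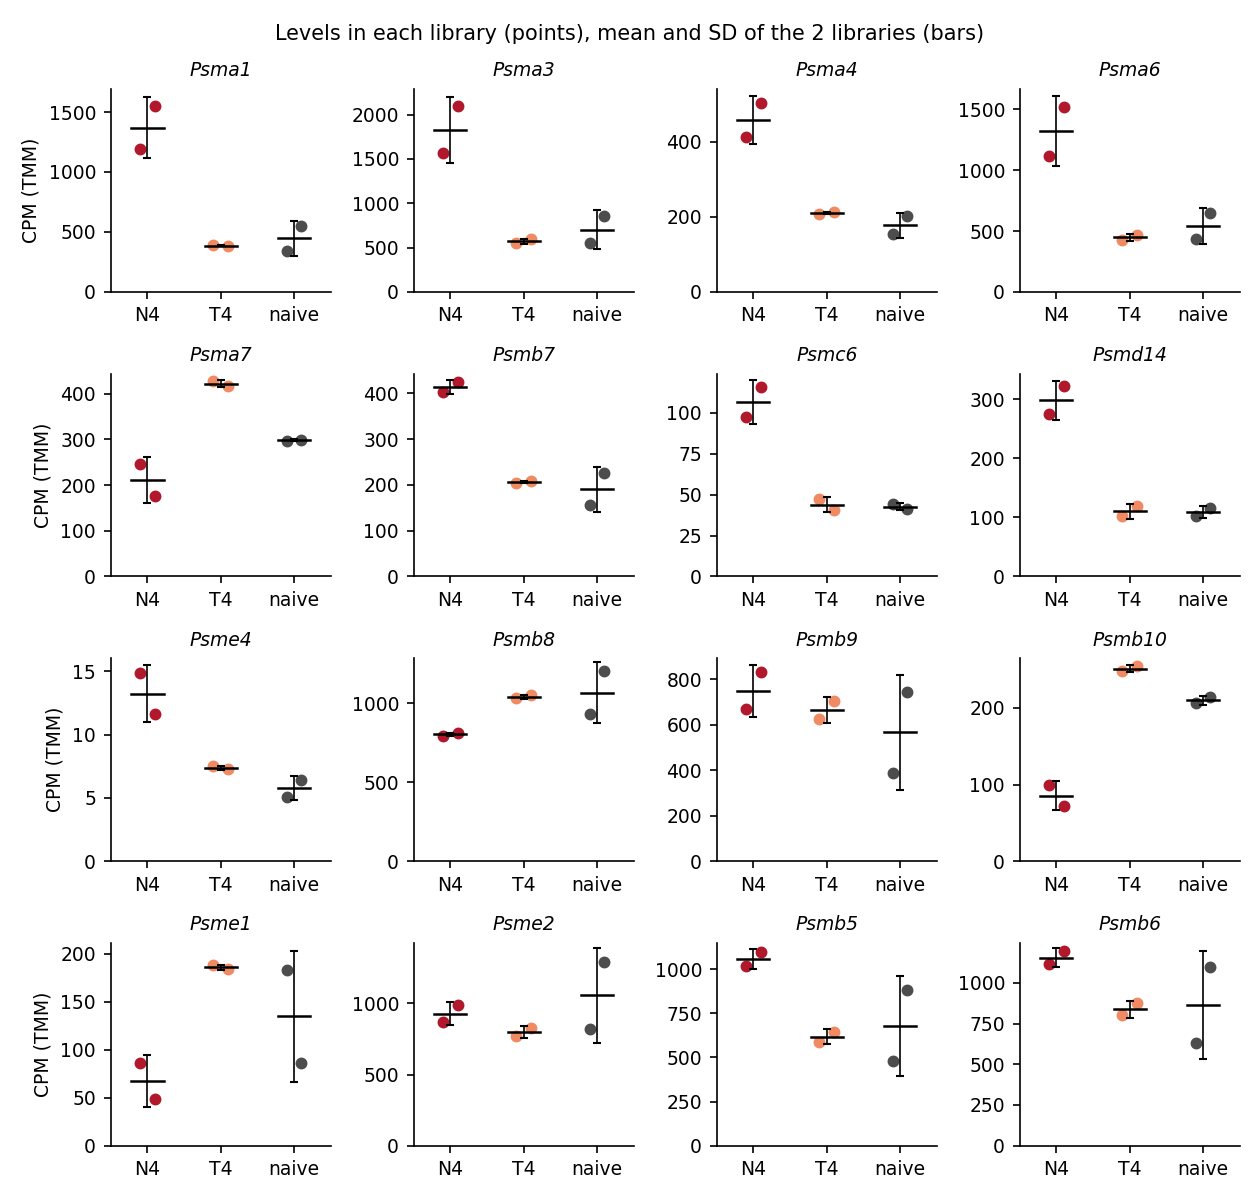
CPM with TMM scaling (vertical axes, from 0) of 16 genes in each library of the 3 groups (horizontal axes), with points for libraries and bars for mean and SD of 2. Both N4 points lie above all other points for Psma1, Psma3, Psma4, Psma6, Psmb7, Psmc6, Psmd14, Psme4, Psmb5 and Psmb6, and below them for Psma7, Psmb8 and Psmb10. Genes past the threshold were among those chosen for drawing, and the share of all genes with such a separation is not given. By per-length level, Psmb5 and Psmb6 were lower in both N4 libraries than in both T4 libraries.

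Each inducible catalytic gene was then set against the constitutive gene whose product it replaces, within each library. The ratio of Psmb10 to Psmb7 per length was 0.257 and 0.254 in the N4 pair, 1.55 and 1.61 in the T4 pair and 1.76 and 1.22 in the naive pair. As a share of both genes together, Psmb10 made up 20.5% and 20.3% in the N4 pair, 60.9% and 61.7% in the T4 pair and 63.8% and 54.9% in the naive pair, so that the inducible gene was the minor one in N4 alone. The mean log2 ratio in N4 differed by -2.63 (SD 0.04) from T4 and by -2.52 (SD 0.38) from naive. For differences of log2 ratios, SD is the root of the summed variances of both groups, not a standard error of the difference. With only coding transcripts counted, the differences were -3.02 (SD 0.36) and -2.93 (SD 0.54). With counts not divided by length, they were -2.58 (SD 0.38) and -2.46 (SD 0.51), so the SD of 0.04 holds for 1 setting only. The retained intron share of Psmb7, which enters its per-length level, was 4.03% and 52.3% in the N4 pair. With 2 libraries against 2, the exact two-sided permutation test cannot go below 0.33, which is the p of each of these differences.

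The ratio of Psmb8 to Psmb5 was 0.471 and 0.445 in the N4 pair, 1.07 and 0.968 in the T4 pair and 1.17 and 0.832 in the naive pair. Psmb8 thus made up 32.0% and 30.8% of Psmb8 and Psmb5 together in the N4 pair, 51.6% and 49.2% in the T4 pair and 54.0% and 45.4% in the naive pair, again with no overlap between N4 and the others. The log2 ratio differed by -1.15 (SD 0.11) between N4 and T4 and by -1.11 (SD 0.36) between N4 and naive, each at the smallest exact permutation p of 0.33. In the third ratio N4 lay below T4 but overlapped with naive. Psmb9 to Psmb6 was at 0.352 and 0.411 in the N4 pair, 0.456 and 0.471 in the T4 pair and 0.356 and 0.396 in the naive pair, a log2 difference of -0.28 (SD 0.16, exact permutation p 0.33) between N4 and T4 and of 0.02 (SD 0.19, exact permutation p 1.0) between N4 and naive. Between T4 and naive the 3 log2 differences were 0.11 (SD 0.38) for Psmb10 to Psmb7, 0.04 (SD 0.36) for Psmb8 to Psmb5 and 0.30 (SD 0.11) for Psmb9 to Psmb6.

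**Figure D3:**
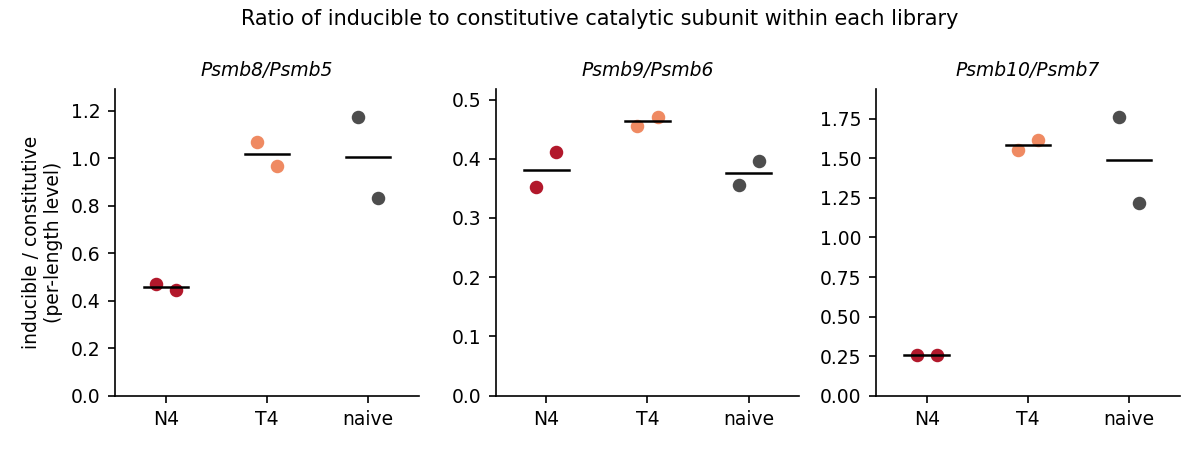
Ratio of the inducible to the constitutive catalytic gene by per-length level (vertical axes, from 0) in each library of N4, T4 and naive (horizontal axes), with points for libraries and bars for means of 2. N4 points lie at 0.445 to 0.471 for Psmb8/Psmb5 and near 0.25 for Psmb10/Psmb7, apart from the other groups; for Psmb9/Psmb6 they overlap the naive points and lie below both T4 points.

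In the regulatory particle, 1 gene of each part was called. Psmc6, for 1 of the 6 ATPases, was at 97.3 and 116 CPM in the N4 pair, 47.2 and 40.7 CPM in the T4 pair and 44.2 and 41.3 CPM in the naive pair. Both N4 libraries lay at more than 2 times the level of any other library, and T4 and naive overlapped. Its log2 fold changes were 1.32 (SE 0.23, edgeR adjusted p 0.023) against naive and 1.28 (SE 0.23, adjusted p 0.034) against T4. The other 5 ATPase genes had log2 fold changes from -0.13 to 0.40 against naive and from -0.36 to 0.00 against T4. Next by p among them, Psmc1 was at 46.7 and 33.4 CPM in the N4 pair, 42.4 and 39.8 CPM in the T4 pair and 38.7 and 21.8 CPM in the naive pair, so that N4 overlapped with both other groups while T4 lay above naive. The per-length level of Psmc6 was 1.46 and 2.89 times the median of the other ATPase genes in the N4 pair, 0.739 and 0.755 times in the T4 pair and 0.907 and 1.44 times in the naive pair.

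Psmd14 encodes the deubiquitinase of the particle, which removes the ubiquitin chain as the substrate enters. It was at 275 and 322 CPM in the N4 pair, 102 and 119 CPM in the T4 pair and 102 and 116 CPM in the naive pair, with T4 and naive overlapping and N4 apart. The log2 fold changes were 1.45 (SE 0.24, edgeR adjusted p 0.021) against naive and 1.43 (SE 0.24, adjusted p 0.031) against T4. Of the other 10 non-ATPase genes 0 passed the threshold, with log2 fold changes from -0.04 to 1.11 against naive and from -0.92 to 0.53 against T4. Psmd2, a scaffold that docks ubiquitin receptors, was at 53.2 and 47.5 CPM in the N4 pair, 40.1 and 37.8 CPM in the T4 pair and 29.0 and 17.7 CPM in the naive pair, with a log2 fold change of 1.11 against naive (SE 0.30, edgeR adjusted p 0.065). Its level thus stood in the order N4, T4, naive without overlap. Psmd7, the catalytically inactive partner of PSMD14, was highest in T4, a gene singled out after its values were seen. It was at 56.0 and 37.1 CPM in the N4 pair, 92.1 and 84.4 CPM in the T4 pair and 50.3 and 34.8 CPM in the naive pair, and its log2 fold change in T4 against naive, 1.05 (SE 0.31), had an edgeR adjusted p of 0.217.

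All 17 regulatory particle genes had a positive fold change in T4 against naive, from 0.02 to 1.05 on the log2 scale, with a median of 0.46 against 0.00 over all genes, and 0 of them passed the threshold. With DESeq2 size factors 14 of the 17 were positive, with the GC correction 15, and with the correction for GC content and length 13. The median was 0.81 without naive replicate 1 and 0.20 without naive replicate 2. The corresponding medians were 0.36 in N4 against naive and -0.04 in N4 against T4, against -0.09 and -0.20 over all genes tested. For the 14 constitutive core genes the medians were 1.17, -0.06 and 1.11 in N4 against naive, T4 against naive and N4 against T4, and for the 5 immunoproteasome genes -0.41, 0.23 and -0.38. These 3 comparisons share libraries. Of these medians, that of the immunoproteasome genes turned to 0.00 (N4 against naive), -0.09 (T4 against naive) and 0.32 (N4 against T4) with the GC correction, and that of the regulatory particle to 0.31 in N4 against T4. Scaling by library totals alone moved the median over all genes to -0.65, 0.30 and -1.05 in the 3 comparisons, and with it the regulatory particle median to -0.25 in N4 against naive and the core median to 0.33 in T4 against naive. Relative to the median over all genes, the core genes stood at 1.33, 0.04 and 1.28 under that scaling, against 1.26, -0.06 and 1.3 with TMM, and the immunoproteasome genes at -0.27, 0.27 and -0.19, against -0.32, 0.23 and -0.18.

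On the per-length scale the core and the regulatory particle differed in level by more than 10 times in every library. The median of the 14 core genes was 645 and 618 in the N4 pair, 527 and 516 in the T4 pair and 409 and 352 in the naive pair, and that of the 17 regulatory particle genes 24.8 and 11.8 in the N4 pair, 39.4 and 35.4 in the T4 pair and 35.1 and 11 in the naive pair. The second N4 and the second naive library stood apart from their partners in the regulatory particle. The ratio of both medians was 26 and 52.2 in the N4 pair, 13.4 and 14.6 in the T4 pair and 11.7 and 32.1 in the naive pair, so that N4 and naive overlapped. In the second N4 and the second naive library the mean transcript length weighted by level was 809 and 763 bases, against 839 to 933 in the other 4. Regulatory particle genes have longer transcripts by median, at 1904 bases for the non-ATPase and 1598.5 for the ATPase genes. The median was 1193 bases for the alpha ring and 898 for the constitutive beta ring. The part of length in the ratio of core to regulatory particle was not tested.

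**Figure D4:**
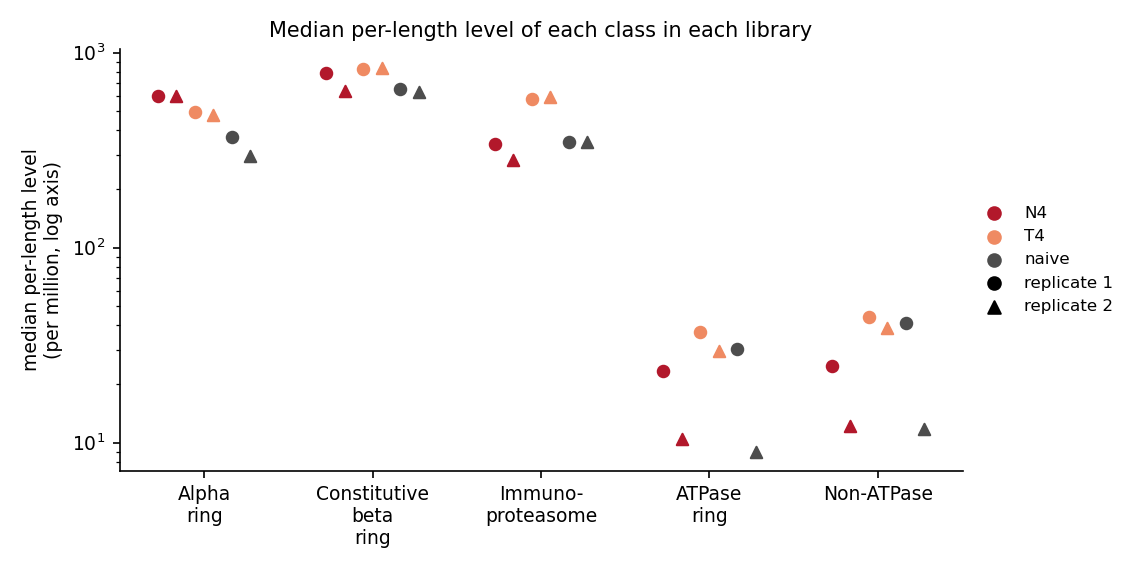
Median per-length level of each class (vertical axis, log scale) in each of the 6 libraries, by class (horizontal axis), with circles for replicate 1 and triangles for replicate 2. Core and immunoproteasome classes lie at 283 and above, regulatory particle classes at 44.1 and below, and replicate 2 of N4 and of naive lies lowest in both regulatory classes.

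The remaining members fill other roles. Psme4, for the activator PA200 that binds the core without ubiquitin, was at 14.8 and 11.6 CPM in the N4 pair, 7.48 and 7.26 CPM in the T4 pair and 5.08 and 6.43 CPM in the naive pair. N4 lay above T4 and T4 above naive, and the log2 fold change of 1.2 against naive passed (SE 0.28, edgeR adjusted p 0.044), while 0.85 against T4 did not (SE 0.28, adjusted p 0.106). Psme3, for the nuclear activator PA28 gamma, was at 125 and 143 CPM in the N4 pair, 114 and 89.6 CPM in the T4 pair and 142 and 103 CPM in the naive pair, so that N4 lay above T4 and both overlapped with naive. The assembly chaperone gene Psmd10 was at 170 and 211 CPM in the N4 pair, 87.5 and 83.8 CPM in the T4 pair and 93.5 and 133 CPM in the naive pair, with an edgeR adjusted p of 0.056 against T4 (log2 fold change 1.16, SE 0.27). The other 2 chaperone genes went the other way against T4. Psmd9 was at 15.1 and 7.70 CPM in the N4 pair, 22.5 and 19.8 CPM in the T4 pair and 15.3 and 9.0 CPM in the naive pair, and Psmd5 had log2 fold changes of -0.80 against T4 and -0.06 against naive, neither of which passed.

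The genes that belong to other tissues were near the limit of detection. Psmb11 was at most at 0.093 CPM in any library and at 0 in 1 naive library, and Psma8 ranged from 0.364 to 1.73 CPM with full overlap of the groups. Psmc3ip was at 5.53 and 5.63 CPM in the N4 pair, 7.97 and 7.48 CPM in the T4 pair and 3.54 and 4.29 CPM in the naive pair, in the order T4, N4, naive without overlap, and its log2 fold change in T4 against naive was 0.98 (SE 0.27, edgeR adjusted p 0.197).

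The members' fold changes went with the GC content of their transcripts. Over the 45 members, Spearman's rho between GC content and log2 fold change was -0.51 in N4 against naive, -0.51 in N4 against T4 and 0.28 in T4 against naive. Over 6418 genes with a mean log2 CPM above 3 it was -0.33, -0.41 and 0.16. These are correlations across genes of the same libraries, and genes are not independent replicates. The 7 genes that rose against naive had a median GC content of 43.9%, and Psmb10 had 56.8%, the highest of the inducible and constitutive catalytic genes, beside 45.5% for its partner Psmb7. Psmb8 and Psmb5 are closer, at 55.1% and 56.6%, as are Psmb9 and Psmb6, at 55.2% and 55.6%.

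A fit with offsets for GC content in each library called 5 of the 45 members higher and 0 lower in N4 against naive. They were Psma1, Psma4, Psmd2, Psmd13 and Psmd14. Over all genes it called 11.3% in either direction, and 44.9% of those calls were higher. In N4 against T4 it called 4 of the 45 higher and 0 lower (Psma1, Psma6, Psmd13 and Psmd14). Over all genes it called 7.07% there in either direction, and 57.2% of those calls were higher. In T4 against naive it called 0 members, against 0.0783%. Psma1 and Psmd14 were thus called in both comparisons with and without the correction. The log2 fold change of Psmb10 was then -0.79 against naive (SE 0.26, edgeR adjusted p 0.109) and -0.79 against T4 (SE 0.26, adjusted p 0.118). That of Psmc6 was 0.98 against naive (edgeR adjusted p 0.059) and 0.80 against T4 (adjusted p 0.099). With this correction the calls of Psma3, Psmc6 and Psmb10 ended in both comparisons in which they had been made, as did those of Psmb7 and Psme4 against naive. The log2 fold changes of Psma3 were then 1.14 against naive and 1.43 against T4, and against naive those of Psmb7 and Psme4 were 0.98 (edgeR adjusted p 0.065) and 1.00 (adjusted p 0.070). With length corrected as well, a setting chosen after seeing the data, 12 members were called higher and 0 lower in each of the N4 comparisons. Psma3 and Psmc6 were among them in both. Over all genes, 15.0% were called against naive and 11.4% against T4 in either direction. Of those calls, 50.4% and 63.7% were higher. With GC content alone corrected, the immunoproteasome median in N4 against T4 turned from negative to 0.32, while the core median was 1.31. The difference in the ratio of Psmb10 to Psmb7 between N4 and T4 shrank to -1.72 on the log2 scale, and that of Psmb8 to Psmb5, genes of like GC content, was -1.24.

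**Figure D5:**
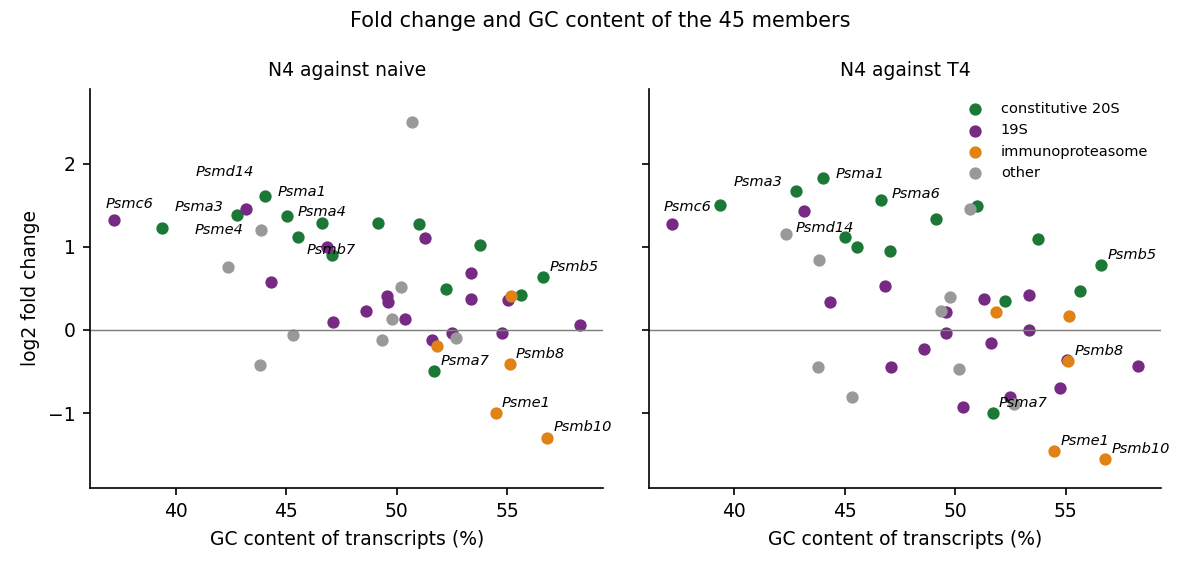
Log2 fold change (vertical axis) against GC content of the transcripts in percent (horizontal axis) for the 45 genes in N4 against naive (left) and N4 against T4 (right), coloured by class. Spearman's rho is -0.51 in both panels, and Psmb10 lies at the lower right end of each.

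Counts were also given per transcript. The share of counts in transcripts annotated as retaining an intron was high for some members in every library: 42.7% to 51.4% for Psmb8 and 39.3% to 43.8% for Psma3, for which another 36.7% to 46.9% lay in transcripts that the annotation marks for nonsense-mediated decay. For Psmb7 the retained intron share was 4.03% in 1 N4 library and 45.5% to 52.3% in the other 5 libraries, a split that ran within a group. For Psme1 it was 21.8% and 4.31% in the N4 pair, 32.2% and 29.4% in the T4 pair and 36.6% and 23.9% in the naive pair. These shares are estimates over transcripts that overlap, and the kit named does not mark strand.

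A change in transcript shares, tested with edgeR's diffSpliceDGE in the 40 members with more than 1 transcript tested, was called for 1 member in N4 against naive, Psmc4 (adjusted p 0.007, against 1.2% of 10394 genes called). The same gene was called in T4 against naive (adjusted p 0.019, against 0.414%), and 0 members were called in N4 against T4 (background 1.42%), where 4 had an unadjusted p under 0.05 and a gene-level F test called 4, against 3.03% of all genes. Psmc4 encodes another of the ATPases. A transcript of it that retains an intron, Psmc4-204, held 439 and 372 counts in N4 and 300 and 695 in T4, and was at 0 in both naive libraries (where 0 counts allow a share of up to 0.016% and 0.0681% at 3 counts, for counting error only), or 3.82% and 7.0% of the gene in N4 and 1.73% and 5.11% in T4. The main coding transcript, Psmc4-201, held 94.1% and 88.7% of the gene in the N4 pair, 91.9% and 90.8% in the T4 pair and 97.3% and 94.1% in the naive pair, so that the higher N4 and the lower naive library were level. Among transcripts of at least 10 CPM in 2 libraries, where 15 members could be tested, 0 were called in any comparison and 0 had an unadjusted p under 0.05. Psmc4-204 did not reach that level in any library, so the call of Psmc4 could not recur there.

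Genes that work with the proteasome were counted by lists chosen beside the members. The values of these lists are from the TMM fit alone, and those with the GC correction are not given. The list median of 14 assembly factors and bound proteins in N4 against naive was 0.67, against -0.09 over all genes. Of the 14, 2 rose, or 14.3% against 4.87% of all genes tested. They were Uchl5, for a deubiquitinase of the particle, at 179 and 207 CPM in the N4 pair, 71.2 and 69.5 CPM in the T4 pair and 62.2 and 82.0 CPM in the naive pair (log2 fold change 1.42, SE 0.25, edgeR adjusted p 0.023), and Akirin2, for a factor of nuclear import of proteasomes (0.96, SE 0.22, adjusted p 0.045). Against T4 only Uchl5 of this list passed (1.45, SE 0.25, edgeR adjusted p 0.032), or 7.14% against 3.48% of all genes called higher. Pomp, which assembles the beta ring, was at 1562 and 2162 CPM in the N4 pair, 748 and 860 CPM in the T4 pair and 551 and 1043 CPM in the naive pair and did not pass (edgeR adjusted p 0.093 against naive).

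Of 11 ubiquitin and ubiquitin-activating genes, with a median of -0.07 in N4 against naive, 1 rose, or 9.09% against 4.87% of all genes. It was Uba1, which activates ubiquitin (1.2, SE 0.24, edgeR adjusted p 0.031). Against T4 0 passed, against 7.96% of all genes, and 2 had an unadjusted p under 0.05. Of 9 factors that control proteasome transcription, 0 passed against naive or T4, against 12.1% and 7.96% of all genes. There, 4 and 3 had an unadjusted p under 0.05, and the medians were 0.09 and -0.20. Nfe2l1, the factor known for raising proteasome genes when proteasomes are inhibited, was at 6.98 and 4.61 CPM in the N4 pair, 4.97 and 3.61 CPM in the T4 pair and 5.61 and 3.89 CPM in the naive pair, which overlapped.

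Of 15 genes of the interferon-gamma response, 1 rose and 4 fell in N4 against naive, and the list median was -0.86. That was 6.67% higher and 26.7% lower, against 4.87% and 7.18% of all genes. Ifng, the cytokine itself, was at 117 and 39.3 CPM in the N4 pair, 12.3 and 12.3 CPM in the T4 pair and 3.08 and 5.88 CPM in the naive pair, in that order without overlap (log2 fold change 4.13 against naive, SE 0.63, edgeR adjusted p 0.017). Irf1, for a transcription factor that acts on Psmb9 and Tap1, was at 13.7 and 14.2 CPM in the N4 pair, 27.3 and 30.6 CPM in the T4 pair and 43.8 and 33.9 CPM in the naive pair (-1.48 against naive, SE 0.25, edgeR adjusted p 0.020). Socs1 and Gbp4 also fell against naive. Against T4, Ifng rose (2.67, SE 0.59, edgeR adjusted p 0.049), or 6.67% of the list against 3.48% of all genes called higher. No other gene of the list passed, Irf1 having an edgeR adjusted p of 0.053.

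Of 14 genes of class I presentation, 0 passed in N4 against naive, against 12.1% of all genes. There, 3 had an unadjusted p under 0.05 and the median was -0.07. Against T4 1 fell, or 7.14% against 4.47% of all genes. It was H2-K1, for the class I molecule that presents the ovalbumin peptide, at 321 and 227 CPM in the N4 pair, 857 and 768 CPM in the T4 pair and 889 and 552 CPM in the naive pair (-1.57 against T4, SE 0.34, edgeR adjusted p 0.048). Tap1, which shares its upstream bases with Psmb9, was at 25.4 and 23.6 CPM in the N4 pair, 43.3 and 43.7 CPM in the T4 pair and 32.1 and 19.8 CPM in the naive pair, and did not pass. In T4 against naive 0 genes of these 5 lists passed, against 0.117% of all genes, with 6 at an unadjusted p under 0.05, as edgeR gave them.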

How the data were processed

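RNA of 6 libraries (3 groups of 2) was measured after miRNeasy Micro extraction and SMARTer ultra-low poly(A) library preparation, per the labels' protocols. The authors deposited estimated counts per gene and per transcript, as whole numbers and not normalized. The build was mm39 per the submitters' processing notes, which list, without roles, DESeq2 1.30.1, R 4.0.5, STAR 2.7.1a, StringTie 2.1.0 and SAMtools 1.9. If the counts came from coverage, their scale depends on a read length (not given in the sources used here), and totals are not taken as reads. Symbols (52081 identifiers, 94.0%), lengths, GC content and transcript types came from GENCODE M21 on GRCm38, and promoters from RefSeq on GRCm38; both differ in build from the counts. Exons of 14 members overlap those of another gene, 9 those of a coding gene, and reads may be split between them.

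Genes were tested with edgeR 4.0.16 (limma 3.58.1, R 4.3.3): TMM, filterByExpr by group, the quasi-likelihood test over all 6 libraries in 1 fit, adjusted by Benjamini-Hochberg at 0.05. Standard errors (SE) of log2 fold changes were derived as log2 fold change over the root of F. The common biological coefficient of variation was 0.669. Fold changes are N4 or T4 over naive, and N4 over T4. Transcript shares were tested with diffSpliceDGE and Simes p-values, and ratios with exact permutation tests. The procedures were tested on simulated data. There the edgeR test found 3% of 2-fold changes in N4 against naive and 0% in each of the other comparisons. It found 28.4% to 34.3% of 4-fold changes. A gene that did not pass may therefore still differ. DESeq2 1.42.0 was an alternative test. The offsets for GC content and then length were lowess fits with a span of 0.3. The libraries of a group differed by far more than sampling noise, with a chi-square per degree of freedom of 343.4 in N4, 118.4 in T4 and 2206.5 in naive, and none was taken for a duplicate.

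The members, lists, tests and the rule for naming genes were chosen with earlier results of these data known, and the correction for length was added after seeing the data. Values per library are given for the immunoproteasome genes, Psmb5, Psmb6 and Psmb7, every member past the threshold, and the 2 members of smallest p in N4 against naive in each other class; of the other lists at most 4 genes past the threshold are named. Psma7, Psmd5, Psmd7, Psmd13, Pomp, Nfe2l1 and Tap1 were added after their values were seen. The result of 1 marker list is not reported here.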

Additional observations from a re-analysis of the deposited data

Results flagged for a closer look

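By the edgeR test of N4 against T4, the difference from naive cells was called unlike between both stimulated groups in 6 members. That was 13.3% of the members, against 7.96% of all genes. The log2 difference was 1.83 for Psma1 (edgeR adjusted p 0.034), 1.68 for Psma3 (0.039), 1.56 for Psma6 (0.042), 1.43 for Psmd14 (0.031) and 1.28 for Psmc6 (0.034), and it was -1.56 for Psmb10 (0.030). For each of these 6 genes both N4 libraries lay on 1 side of both T4 libraries. The genes were selected by the test on these same libraries, so their separation is not a separate result. The share of all genes with such a separation is not given.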

How the results depend on the processing

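The number of members called changed with the processing and with the libraries used. Shares of all genes called stand in brackets. In N4 against naive, 8 members were called (12.1%), and 15 with the replicate block (15.7%), 15 with DESeq2 (27.2%), 5 with the GC correction (11.3%), 1 with a minimum fold change of 1.5 (7.79%) and 0 when only both groups were fitted (5.04%). In N4 against T4, 6 were called (7.96%), and 16 with the replicate block (14.6%), 19 with DESeq2 (25.1%), 12 without the filter (11%), 12 with the correction for GC content and length (11.4%), 18 when only both groups were fitted (24.7%) and 0 with the minimum fold change (3.34%). Higher calls made up 57.2% of all calls in N4 against T4 with GC and 63.7% with GC and length, against 43.8%. In T4 against naive, 0 were called, and 2 with DESeq2. Leaving out 1 library leaves that group with 1 library assumed to vary like the others. In both comparisons of N4 the calls then fell without either N4 or either T4 library, among the members and over all genes alike. Without a naive library they rose, except in N4 against naive without naive replicate 1, where they fell. The labels do not say whether replicate numbers pair the libraries across groups. The deviations of same-numbered libraries correlated at 0.02 (N4 and T4), 0.08 (N4 and naive) and 0.04 (T4 and naive), which cannot settle it.

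Scaling by library totals gave medians in N4 against T4 of 0.23 for the core, -0.86 for the regulatory particle and -1.23 for the immunoproteasome. The correction for GC content and length gave 0.47 for the regulatory particle, and the immunoproteasome median turned to 0.32 with GC and 0.46 with GC and length. Without 1 library each, class medians ranged as follows: core T4 against naive -0.52 to 0.38, regulatory particle N4 against naive -0.03 to 0.62 and N4 against T4 -0.33 to 0.16 and T4 against naive 0.20 to 0.81, immunoproteasome T4 against naive -0.26 to 0.23.

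With library totals the log2 fold change against T4 became -0.083 for Psmb5, -0.39 for Psmb6, -0.70 for Psmb9 and -0.65 for Psme2, and against naive -0.048 for Psmb6 and -0.062 for Psmb9. Psmb8 turned to 0.32 against T4 and 0.0037 against naive with GC, and to 0.46 and 0.082 with GC and length; Psme2 turned to 0.057 against naive with GC. Without 1 library, the change against naive ranged from -0.062 to 0.87 for Psmb6, -0.13 to 0.94 for Psmb9 and -0.62 to 0.17 for Psme2.

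Of the log2 ratios, those of Psmb8 to Psmb5 and Psmb10 to Psmb7 kept their sign in N4 against T4 and against naive under every alternative run. In T4 against naive they became -0.046 with GC and length and -0.047 with GC, and ranged without 1 library from -0.21 to 0.29 and from -0.15 to 0.38. Psmb9 to Psmb6 turned in N4 against naive to -0.0027 with counts not divided by length and -0.043 with GC, ranged from -0.095 to 0.13 without 1 library, and turned to 0.073 in N4 against T4 with GC and length. Members with a transcript usage call numbered 0 in both comparisons with naive among transcripts of at least 10 CPM, a level that Psmc4-204 did not reach. With the F test they numbered 5 in N4 against naive (3.68%) and 4 in N4 against T4 (3.03%). The number also changed when 1 library was left out, which leaves that group with 1 library. The cause of these shifts was not tested.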
